A study of Mus musculus with 6 samples.

Results

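Hepatocytes differ by their place in the liver lobule, and 10 genes that mark this place were examined here in the livers of mice on a diet with collagen peptide. Gulo, Slc1a2, Rgn, Lect2 and Rhbg mark hepatocytes near the central vein. Hal, Sds, Cyp2f2, Uroc1 and Hsd17b6 mark hepatocytes near the portal vein. The genes were chosen by symbol with earlier results of these data known, Gulo and Hal among them. Every probe set annotated to 1 of these symbols alone was taken. That gave 15 probe sets for 9 genes, out of 18193 genes with such a probe set in the whole table. Sds is not analysed here.

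The livers came from 6 male mice of the inbred albino strain BALB/cCrSlc. The 3 mice of the diet 6C+4CP had eaten 6% casein and 4% collagen peptide from fish, and the 3 mice of the diet 10C had eaten 10% casein. Both were low-protein forms of AIN-93M, which is a purified rodent diet meant for maintenance of adults, and were fed for 10 weeks up to an age of 17 weeks. Each diet had 12 mice, and those arrayed were 3 whose weight gain for the food eaten was in the middle, which limits them as a sample of the diet. A piece of 1 liver lobe was taken in the morning after 3 h without food. The 6C+4CP diet both adds collagen peptide and takes away casein, and the effects of these changes cannot be told apart.

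Blood enters the lobule at the portal vein and leaves at the central vein, and oxygen, hormones and nutrients fall along this path. Periportal hepatocytes carry out most of the urea cycle, gluconeogenesis and amino acid breakdown, whereas pericentral hepatocytes make glutamine and much of the cytochrome P450 activity. Wnt ligands from endothelial cells at the central vein act through beta-catenin and its TCF and LEF partners to maintain the pericentral programme. A liver piece mixes all zones, so the zone of a marker cannot be checked in these values, and fewer cells of a zone and less RNA per cell cannot be told apart.

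Each mouse gave 1 array of 45037 probe sets, and the authors' processed values, used as deposited, were read as log2. Array medians lay between 6.306 and 6.308. Most probe sets hold a value shared by all 6 mice, and 7791 (17.3%) ranged over more than 0.01 and are called varying. A probe set that does not vary gives no information on differences between mice. The 10C mouse replicate 2 had a Saa1 value of 14.03, against 7.54 to 9.13 in the other 5 mice, Saa1 being an acute phase protein. Across varying probe sets, which are not independent replicates, the correlation of 10C replicate 3 was 0.985 with 6C+4CP replicate 2, above its 0.971 and 0.973 with 10C replicates 1 and 2.

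The starts of 6 of the 9 genes have an entry in the promoter table from RefSeq (GRCm38.p6), with 7 windows in all. These 250 bases before the start were searched on both strands for the TCF and LEF cores CTTTGAT and CTTTGAA, the letters CAAAGNNCA of an HNF4A site and the C/EBP core TTGCNNAA. The letters CAAAGNNCA can overlap either TCF and LEF core. Windows of Slc1a2, Lect2 and Hal, shown because they alone among the 6 genes held CTTTGAT, are printed 5′ to 3′ with matches to any of the motifs in capitals. They lie at chr2:102706188-102706437 on the plus strand (Slc1a2), chr13:56548539-56548788 on the minus strand (Lect2) and chr10:93488518-93488767 on the plus strand (Hal).
Slc1a2: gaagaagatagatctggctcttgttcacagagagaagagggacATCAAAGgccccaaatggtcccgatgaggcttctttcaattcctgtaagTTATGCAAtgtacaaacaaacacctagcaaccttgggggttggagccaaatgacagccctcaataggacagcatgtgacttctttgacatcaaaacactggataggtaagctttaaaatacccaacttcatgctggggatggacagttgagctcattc
Lect2: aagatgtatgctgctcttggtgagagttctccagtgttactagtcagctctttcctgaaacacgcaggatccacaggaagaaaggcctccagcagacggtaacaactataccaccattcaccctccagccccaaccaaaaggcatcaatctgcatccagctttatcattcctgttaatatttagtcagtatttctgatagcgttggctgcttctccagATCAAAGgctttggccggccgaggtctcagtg
Hal: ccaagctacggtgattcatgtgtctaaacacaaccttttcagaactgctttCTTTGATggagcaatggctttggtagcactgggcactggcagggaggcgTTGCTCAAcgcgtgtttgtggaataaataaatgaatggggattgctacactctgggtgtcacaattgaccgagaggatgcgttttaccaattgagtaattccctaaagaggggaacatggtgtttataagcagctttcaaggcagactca
The match CTTTGAT starts 207 bases before the start in Slc1a2 and 32 in Lect2, both on the reverse strand of the window, and 199 in Hal, on its forward strand. Of 32851 windows of the same length, 3.21% held CTTTGAT, 4.46% CTTTGAA, 5.49% CAAAGNNCA and 9.56% TTGCNNAA. The C/EBP core was found in Slc1a2 and Hal. No match to CTTTGAA or CAAAGNNCA was in the windows of these 6 genes, and none of the motifs was in those of Uroc1, Cyp2f2 and Hsd17b6. A match is a run of letters and not a measured site.

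The diets were compared to ask whether pericentral and periportal genes moved apart. No marker passed the test in either zone: limma called 0 of the 15 probe sets at an adjusted p under 0.05, with 2 of the 9 varying probe sets at an unadjusted p under 0.05. Gulo among the pericentral and Hal among the periportal markers had lower values in all 3 mice fed 6C+4CP than in any mouse fed 10C, by 1.32 and 1.2 times. The other 7 varying markers overlapped between the diets. Over all probe sets limma called 0.242%, and of the 109 called 103 do not vary and 6 do. Among all varying probe sets 13.1% had an unadjusted p under 0.05. Diets lay apart in 2 of the 9 varying probe sets of the markers (22.2%), both lower in 6C+4CP, against 19.9% of all varying probe sets in either direction and 9.11% of them lower in 6C+4CP. The share in either direction is near the background, and with 9 probe sets nothing was read from that in 1 direction.

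Of the 9 varying probe sets 8 had a lower mean in 6C+4CP and 1 a higher mean, and with quantile normalization these counts were 6 and 3. The median difference, 6C+4CP minus 10C in log2, was -0.04 over the 5 pericentral and -0.049 over the 4 periportal probe sets, beside -0.004 over all varying probe sets. Among all varying probe sets 52.1% were lower. The median size of a difference was 0.082 over all varying probe sets, which Gulo and Hal exceeded.

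**Figure D1:**
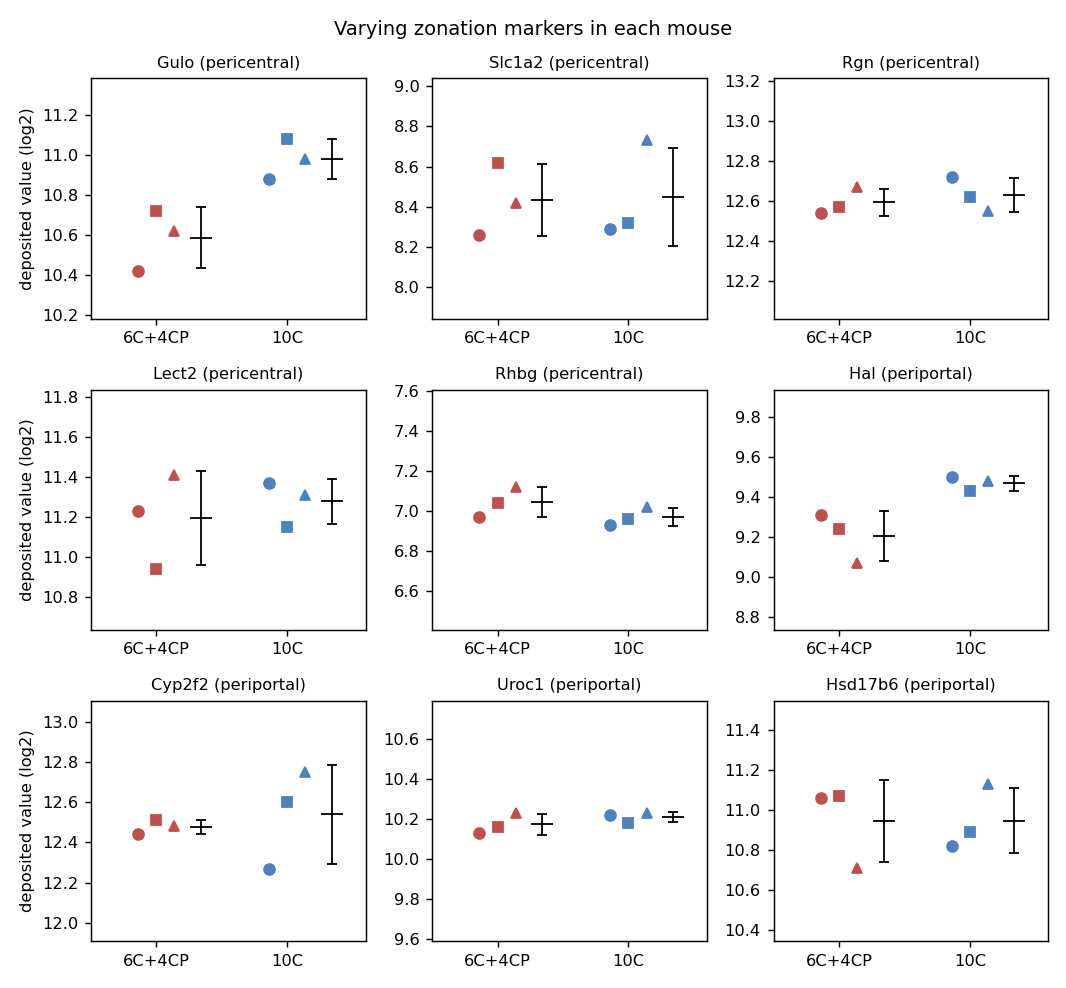
Deposited value (log2) of each varying zonation marker in each mouse, 1 panel a gene, 6C+4CP in red to the left and 10C in blue to the right. Circles, squares and triangles are replicates 1, 2 and 3, and black bars give the mean ± SD (n = 3). Every panel spans the same width of values. Gulo and Hal are the panels in which the 3 mice of each diet lie apart.

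Gulo encodes gulonolactone oxidase, the last enzyme of vitamin C synthesis in mice. Its probe set (1451297_at) read 10.42, 10.72 and 10.62 in the 6C+4CP mice and 10.88, 11.08 and 10.98 in the 10C mice. The lowest 10C mouse lay 0.164 above the highest 6C+4CP mouse. The means were 10.59 ± 0.15 in 6C+4CP and 10.98 ± 0.099 in 10C (SD, n = 3 each), and the difference was -0.395 (SE 0.1, 95% interval -0.68 to -0.11). It did not pass limma over all probe sets (unadjusted p = 0.0173, adjusted p = 0.61), nor in the fit to varying probe sets alone (adjusted p = 0.178), in which 0.0% of 7791 were called and 1140 had an unadjusted p under 0.05. Without any 1 mouse the difference ran from -0.462 to -0.312. Leaving out a mouse cannot make groups that lie apart overlap, so this shows only how the size of the difference moved.

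Rgn, regucalcin, is the lactonase that acts just before Gulo in the same pathway. It read 12.54, 12.57 and 12.67 in the 6C+4CP mice and 12.72, 12.62 and 12.55 in the 10C mice, so the diets overlapped. Its difference of -0.04 (SE 0.061, 95% interval -0.21 to 0.13) turned to 0.001 with quantile normalization. Among the 5 genes listed for ascorbate synthesis, all varying, 3 were lower and 2 higher, limma called 0, and Gulo was the 1 gene with the diets apart (21.4% among all varying genes). Ugdh, which makes UDP-glucuronate, differed by 0.116 (SE 0.1), Akr1a1, the aldehyde reductase that makes gulonate, by 0.023 (SE 0.038), and Ugp2, which makes UDP-glucose, by -0.184 (SE 0.31).

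Slc1a2 encodes a glutamate transporter that in liver sits on pericentral hepatocytes, which also hold glutamine synthetase. Of its 5 probe sets 1 varied (1438194_at), with 8.26, 8.62 and 8.42 in the 6C+4CP mice and 8.29, 8.32 and 8.73 in the 10C mice. The highest values were in 10C replicate 3 and 6C+4CP replicate 2. The means were 8.44 ± 0.18 in 6C+4CP and 8.45 ± 0.24 in 10C (SD, n = 3 each), a difference of -0.01 (SE 0.17, 95% interval -0.48 to 0.46), which was 0.131 without 10C replicate 3. The other 4 probe sets read 6.13, 6.58, 7.73 and 6.46 in the mean of each diet and did not vary.

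Rhbg, an ammonium transporter of the Rhesus family, was the marker with a higher mean in 6C+4CP. Its values were 6.97, 7.04 and 7.12 in the 6C+4CP mice and 6.93, 6.96 and 7.02 in the 10C mice. The diets overlapped through 6C+4CP replicate 1 and 10C replicate 3, and without either of these mice they lay apart. The difference was 0.069 (SE 0.049, 95% interval -0.06 to 0.2, adjusted p = 0.852 by limma). Glutamate and ammonium uptake and glutamine synthesis, a list of 6 genes with Slc1a2 and Rhbg among them, had 4 varying genes, 3 lower and 1 higher, and limma called 0. Glul, glutamine synthetase itself, read 10.66, 10.49 and 10.51 in the 6C+4CP mice and 10.72, 10.57 and 10.58 in the 10C mice, with overlap. Oat, ornithine aminotransferase, differed by -0.083 (SE 0.36).

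Lect2 encodes a protein secreted by hepatocytes and known as a target of beta-catenin. It read 11.23, 10.94 and 11.41 in the 6C+4CP mice and 11.37, 11.15 and 11.31 in the 10C mice. The lowest and the highest of the 6 mice were both fed 6C+4CP. The difference was -0.082 (SE 0.15, 95% interval -0.49 to 0.32), and 0.044 without 6C+4CP replicate 2.

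Hal encodes histidine ammonia lyase, which opens the breakdown of histidine. Its probe set (1418645_at) read 9.31, 9.24 and 9.07 in the 6C+4CP mice and 9.50, 9.43 and 9.48 in the 10C mice. The lowest 10C mouse lay 0.115 above the highest 6C+4CP mouse, and the 10C mice lay close together. The means were 9.21 ± 0.13 in 6C+4CP and 9.47 ± 0.036 in 10C (SD, n = 3 each), a difference of -0.261 (SE 0.074, 95% interval -0.46 to -0.06). Limma did not call it over all probe sets (unadjusted p = 0.0233, adjusted p = 0.624) or over varying ones (adjusted p = 0.208). Without any 1 mouse the difference ran from -0.314 to -0.191. As for Gulo, leaving out a mouse could not make the diets overlap.

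Uroc1, urocanate hydratase, takes the product of Hal to the next step. One of its 2 probe sets varied, and its name (1451565_s_at) carries the suffix that the array maker gives to probe sets shared by several transcripts. It read 10.13, 10.16 and 10.23 in the 6C+4CP mice and 10.22, 10.18 and 10.23 in the 10C mice, with overlap. The difference was -0.037 (SE 0.03, 95% interval -0.12 to 0.05). With a range of 0.0984 this was the marker probe set nearest above the limit of 0.01, and the nearest below it was a Slc1a2 probe set with 0.00611. Of the 4 genes of histidine breakdown 3 varied, 2 lower and 1 higher, and limma called 0. Amdhd1, the enzyme after Uroc1, differed by 0.145 (SE 0.27).

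Cyp2f2, a cytochrome P450 that is a common periportal marker, spread more widely in 10C. It read 12.44, 12.51 and 12.48 in the 6C+4CP mice and 12.27, 12.60 and 12.75 in the 10C mice. All 6C+4CP values lay inside the range of the 10C mice. The difference was -0.062 (SE 0.14, 95% interval -0.45 to 0.33), and 0.043 without 10C replicate 3. Whether the spread within the diets differed was not tested.

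Hsd17b6, a steroid and retinol dehydrogenase, had 2 probe sets, of which 1 varied. It read 11.06, 11.07 and 10.71 in the 6C+4CP mice and 10.82, 10.89 and 11.13 in the 10C mice. The lowest of the 6 mice was 6C+4CP replicate 3 and the highest 10C replicate 3. The difference of -0.002 (SE 0.15, 95% interval -0.4 to 0.4) was 0.042 with quantile normalization. The second probe set stood at 6.22 in all mice.

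**Figure D2:**
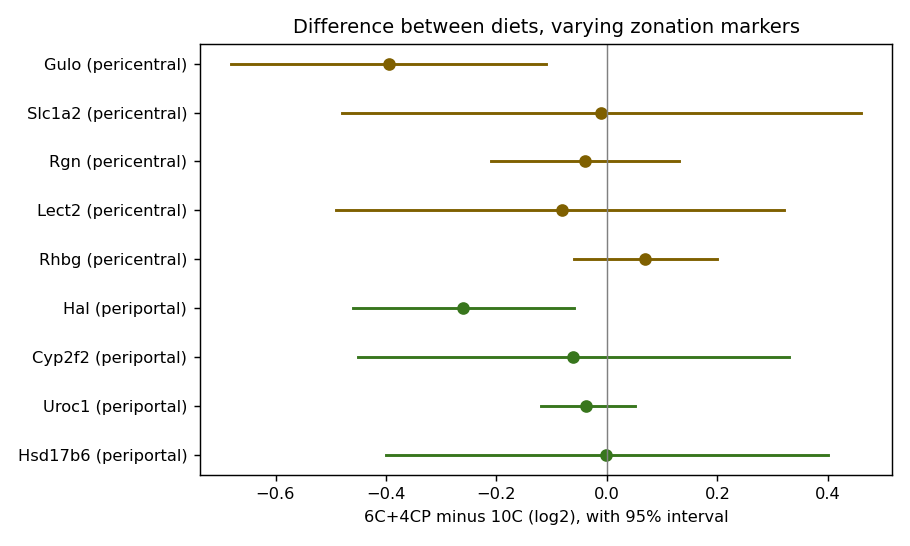
Difference between the diets (6C+4CP minus 10C, log2) for the 9 varying zonation markers, with the 95% interval from limma's moderated SE as a line, pericentral markers in brown and periportal ones in green. The intervals of Gulo (-0.68 to -0.11) and Hal (-0.46 to -0.06) lie below 0 before adjustment for the number of probe sets, and the other 7 span 0.

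For the 7 markers that overlapped, the unadjusted 95% intervals together ran from -0.49 to 0.46, or from 0.713 to 1.38 times the 10C level. Values inside these intervals are not excluded by the 3 mice a diet.

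The zones were also set against each other within each mouse. The mean of the 5 varying pericentral markers minus the mean of the 4 varying periportal ones was -0.85, -0.77 and -0.576 in the 6C+4CP mice and -0.663, -0.75 and -0.78 in the 10C mice. The highest and the lowest of these values were both in 6C+4CP mice. The diet means were -0.732 ± 0.14 in 6C+4CP and -0.731 ± 0.061 in 10C (SD, n = 3 each), a difference of -0.001, or between -0.079 and 0.058 without any 1 mouse. Taken alone, the pericentral mean differed by -0.092 and the periportal mean by -0.09, each with overlap. These means lean on Gulo (-0.395) and Hal (-0.261), the largest differences in their zones. The median differences were smaller, at -0.04 and -0.049. The sign of the mean contrast itself says nothing of the zones, since values of different probe sets have no common scale.

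**Figure D3:**
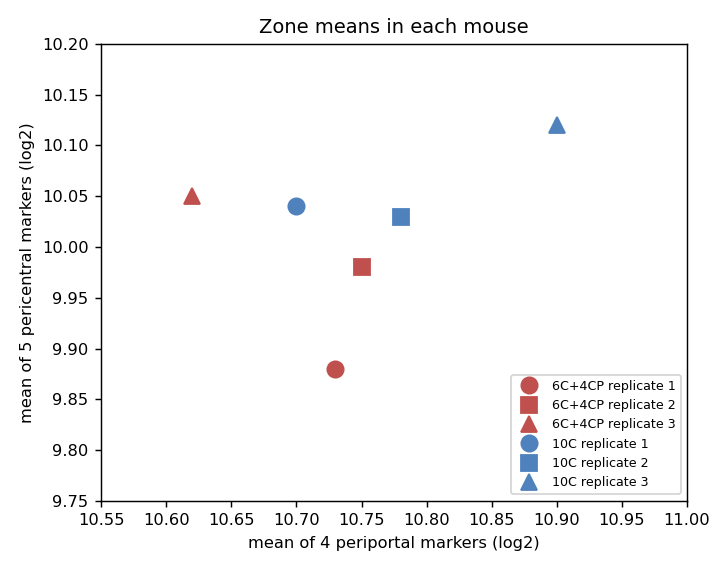
Mean value (log2) of the 4 varying periportal markers on the horizontal axis and of the 5 varying pericentral markers on the vertical axis, 1 point a mouse, 6C+4CP in red and 10C in blue, with marker shapes for the replicate number. The 10C mouse replicate 3 is highest on both axes (10.90 and 10.12), 6C+4CP replicate 1 is lowest on the vertical axis (9.88) and 6C+4CP replicate 3 on the horizontal axis (10.62).

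Other zoned genes went both ways. Their lists come from general knowledge of the lobule and were drawn up with earlier results of these data known. Of 24 listed pericentral genes 22 had a probe set and 15 varied, 10 lower and 5 higher, with a median difference of -0.033 over the varying ones, against -0.0051 over all 4074 varying genes. Limma called 0, and the diets lay apart in 2 of the 15 genes (13.3%, against 21.4% of all varying genes in either direction). Both were lower in 6C+4CP, and 9.52% of all varying genes were apart in that direction. Cyp7a1, the first enzyme of bile acid synthesis, read 6.38, 7.82 and 6.04 in the 6C+4CP mice and 8.66, 9.18 and 9.34 in the 10C mice. Every 6C+4CP mouse was below every 10C mouse, and the difference of -2.315 (SE 0.57) exceeded that of each marker. Cyp27a1, a sterol hydroxylase, read 10.54, 10.69 and 10.51 in the 6C+4CP mice and 10.93, 10.93 and 11.03 in the 10C mice. Its groups were apart too, with a difference of -0.38 (SE 0.063, adjusted p = 0.43 by limma). Among genes that overlapped, Aldh1a1, a retinal dehydrogenase, differed by 0.448 (SE 0.21), and Cyp2c50, a cytochrome P450, by -0.396 (SE 0.2). Cyp2e1, a P450 that marks the pericentral zone, stood at 13.57 in all mice.

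Of 22 listed periportal genes 20 had a probe set and 16 varied, 11 lower and 5 higher, with a median of -0.09, and limma called 0. The diets lay apart in 5 of the 16 (31.2%, against 21.4% of all varying genes), 3 lower and 2 higher. Cps1, which makes carbamoyl phosphate for the urea cycle, had 13.14, 13.06 and 13.10 in the 6C+4CP mice and 13.42, 13.37 and 13.30 in the 10C mice, and Otc, which acts next in the cycle, was apart in the same direction with a difference of -0.147 (SE 0.053). Asl, which splits argininosuccinate, read 9.95, 10.91 and 9.88 in the 6C+4CP mice and 10.98, 11.39 and 11.49 in the 10C mice. The higher genes were Hsd17b13, a lipid droplet protein, and Elovl2, an elongase of polyunsaturated fatty acids. Hsd17b13 read 11.34, 11.39 and 11.33 in the 6C+4CP mice and 11.16, 11.14 and 11.17 in the 10C mice, a difference of 0.196 (SE 0.021, adjusted p = 0.204 by limma). Elovl2 differed by 0.308 (SE 0.099). Arg1, the last enzyme of the urea cycle, overlapped between the diets with a difference of -0.042 (SE 0.12).

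**Figure D4:**
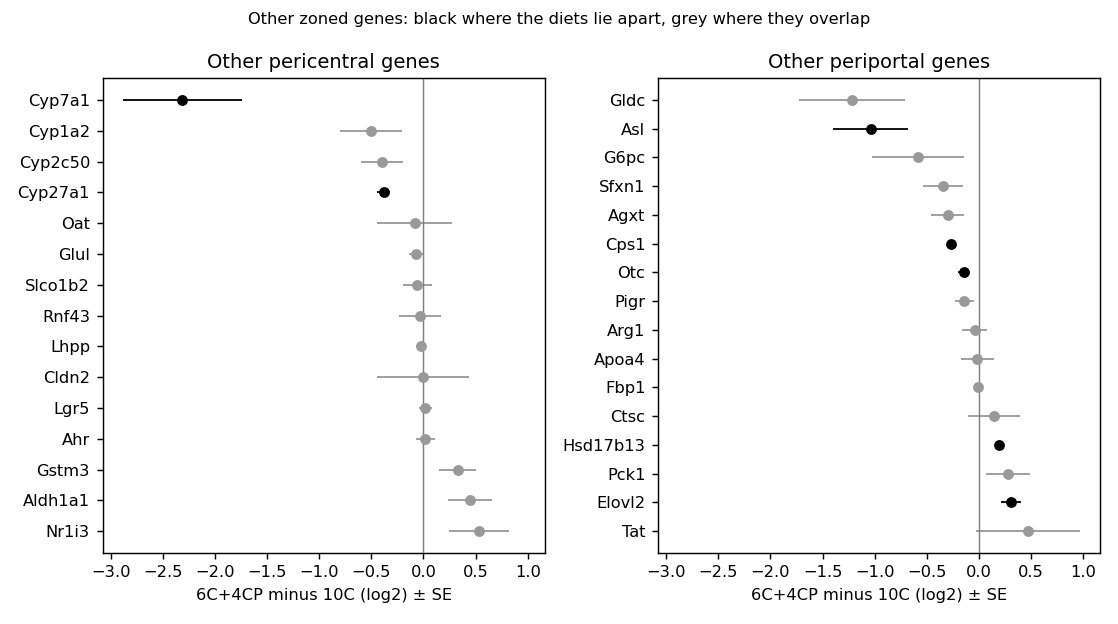
Difference between the diets (6C+4CP minus 10C, log2, ± SE from limma) for the 15 varying genes of the pericentral list on the left and the 16 of the periportal list on the right, in order of the difference. Points are black where the 3 mice of each diet lie apart, as for Cyp7a1 (-2.315) and Hsd17b13 (0.196), and grey where they overlap.

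For most listed genes of the Wnt pathway the probe set used did not vary and gave no information on differences between mice. Of 21 listed ligands, receptors, inhibitors and mediators 20 had a probe set and 5 varied, 2 lower and 3 higher, and limma called 0 of those 5 and 1 that does not vary. Ctnnb1, beta-catenin, read 11.31, 11.28 and 11.24 in the 6C+4CP mice and 11.42, 11.45 and 11.35 in the 10C mice. These groups lay apart by a small amount, a difference of -0.13 (SE 0.034, adjusted p = 0.619 by limma). Fzd7, a Wnt receptor, was apart in the other direction with 7.39, 7.10 and 7.85 in the 6C+4CP mice and 6.66, 6.71 and 7.02 in the 10C mice. Its difference was 0.651 (SE 0.24, adjusted p = 0.704 by limma). Ctnnb1 and Fzd7 were the 2 of the 5 varying genes with the diets apart (40.0%, against 21.4% of all varying genes). Lgr5, a receptor for R-spondins, differed by 0.018 (SE 0.064), and Rnf43, a ligase that removes Wnt receptors, by -0.033 (SE 0.2). Axin2, a target of the pathway often used to read it, stood at 6.58 in all mice and gave no reading of it.

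By closeness of their centred values over the 6 mice, the genes nearest to Gulo were Kmo, Pglyrp2 and Spsb3. They were sought among 5048 genes with any varying probe set, markers left out, whereas the 4074 varying genes above are those whose probe set with the highest mean varies. Kmo, kynurenine monooxygenase of tryptophan breakdown, read 9.58, 9.80 and 9.79 in the 6C+4CP mice and 9.93, 10.13 and 10.07 in the 10C mice, and its mean distance from Gulo was 0.182 of the SD of Gulo over the mice. For Pglyrp2, a peptidoglycan amidase secreted by liver, the distance was 0.206, and for Spsb3 it was 0.208. The genes nearest to Hal were Plpbp, a pyridoxal phosphate binding protein (0.204 of the SD of Hal), Ugt2a3, a glucuronosyltransferase (0.251), and Bbip1, a subunit of the BBSome of cilia (0.252). With 6 mice such closeness describes these arrays only.

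The tissue was checked against cell type markers. Alb, albumin, stood at 14.23 in all mice. Of the 3 varying hepatocyte markers Apoa1 was lower in 6C+4CP by -0.106 (SE 0.024), and Ttr and Hnf4a were higher by 0.032 (SE 0.012) and 0.404 (SE 0.13). The diets lay apart in these 3 of 3, against 21.4% of all varying genes, and limma called 0 of them. Their mean value lay between 13.01 and 13.03 in the 6C+4CP mice and between 12.83 and 12.96 in the 10C mice. That gap follows mostly the 1 Hnf4a probe set used, and of the 2 other varying Hnf4a probe sets 1 ran the same way. Whether the share of hepatocytes differed was not tested. Kupffer cell and macrophage markers varied in 5 of 7 genes, 4 lower and 1 higher, all with overlap, and their mean was between 8.1 and 8.69 in 6C+4CP and between 8.31 and 8.84 in 10C. Of 4 B cell markers only Ighm varied, at 8.32, 8.40 and 8.26 in the 6C+4CP mice and 8.66, 9.08 and 9.22 in the 10C mice, apart like Gulo and Hal. Adipocyte markers varied in 1 of 3 genes, Cidec, higher by 0.2 (SE 0.058) with the diets apart. No cholangiocyte or neutrophil marker varied among 4 measured for each, and the varying markers of stellate cells (4), endothelium (1), erythroid cells (1) and acinar cells (1) overlapped between the diets. The part of other cells in the marker values was not tested.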

How the data were processed

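The deposited table holds the authors' processed values on a log2-like scale, 1 column per array. R 2.7.2 is named in the submitters' processing notes. How background was corrected, how probes were summarised and which log base was taken the sources used here do not give. Every fold rests on reading the values as log2. Per the labels' protocols, column-purified total RNA was amplified and labelled with biotin for 3' expression arrays. No signal over background is given, so precision rests on 3 mice per diet.

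Of 45101 probe sets 64 controls were left out. GEO's platform annotation gave 34945 of the other 45037 a single symbol, 932 several and 9160 none. The probe set with the highest mean stood for a gene in the lists. Symbols were matched through a RefSeq gene table.

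Samples were grouped by title. Diets were compared in limma 3.58.1 (R 4.3.3; lmFit and eBayes without trend, no covariates) with Benjamini-Hochberg adjustment over all 45037 probe sets. SE and 95% intervals are limma's moderated ones, and differences are 6C+4CP minus 10C. Lists are given by counts and medians without a test. From each list up to 4 varying genes with the smallest p are described, and all members. Saa1, Otc, Arg1, Cyp2e1, Axin2, Alb and the counts of 5 or fewer were named after their values were seen. The markers and lists were chosen with earlier results of these data known, Gulo and Hal among them. Alternatives tried were a block for the replicate number, each mouse left out in turn, 2 scalings, 2 subsets of probe sets and another variance model. The code was tested on simulated data.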

Additional observations from a re-analysis of the deposited data

How the results depend on the processing

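Limma called neither Gulo nor Hal in any of the 12 alternatives run for them, with adjusted p from 0.178 to 1.0 for Gulo and from 0.208 to 1.0 for Hal. Only quantile normalization could have changed the direction of their differences, and both genes stayed lower in 6C+4CP. Median centring could hardly move them, since the array medians lay between 6.306 and 6.308. Gulo differed by -0.379 with quantile normalization and -0.396 with median centring, and Hal by -0.258 and -0.261. The other alternatives keep the difference as it is or take 1 mouse out of groups that lie apart. The count of called probe sets over the whole table was not stable: 109 as given, 3 with the replicate number as a block, 1 with quantile normalization, and 0 with median centring, among varying probe sets, in the brighter part of the table and with an intensity trend, with 1202, 1140, 1842 and 2685 at an unadjusted p under 0.05 in the last 4. Without any 1 mouse it ran from 285 to 398. Because 103 of the 109 do not vary, that count rests mostly on differences no larger than 0.01. Among the markers the count was 0 to 1 without any 1 mouse, the 1 being a Hsd17b6 probe set that does not vary, and 0 in the other alternatives. The count of varying markers with the diets apart, examined after seeing the data, ran from 2 to 3 without any 1 mouse. Leaving out a mouse cannot lower this count, and all varying probe sets gave 27.1% to 37.7%.

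Small differences changed sign. With quantile normalization Rgn was 0.001 and Hsd17b6 0.042. Without any 1 mouse Slc1a2 ran from -0.103 to 0.131, Rgn from -0.078 to 0.004, Lect2 from -0.189 to 0.044, Cyp2f2 from -0.198 to 0.043 and Hsd17b6 from -0.065 to 0.115. The periportal median ran from -0.131 to 0.009 and the pericentral one from -0.077 to -0.014. The cause was not tested. Mice with the same replicate number did not deviate together in every pair (r = 0.477, -0.089 and 0.085 across varying probe sets), and 6C+4CP replicate 2 correlated best with 10C replicate 3 (0.401), so the numbers are not taken as pairs. With the replicate number as a block Gulo had adjusted p = 0.344 and Hal 0.686 in limma, and no marker's call changed.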

Other observations

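Regulators of the fasting response were also read, from a list of 11 genes with 10 measured and 7 varying, 2 lower and 5 higher in 6C+4CP, of which limma called 0. Hnf4a, a nuclear receptor of hepatocyte identity that acts in the periportal programme, read 11.49, 11.41 and 11.45 in the 6C+4CP mice and 11.22, 10.80 and 11.13 in the 10C mice. The groups lay apart, with a difference of 0.404 (SE 0.13, adjusted p = 0.704 by limma), and of its 2 other varying probe sets 1 ran the same way. Hnf4a was the 1 of the 7 varying genes with the diets apart (14.3%, against 21.4% of all varying genes). Onecut1, a transcription factor of liver development, read 7.87, 7.27 and 6.63 in the 6C+4CP mice and 8.86, 8.59 and 7.03 in the 10C mice, with overlap. Cebpa, a factor of hepatocyte differentiation, differed by 0.332 (SE 0.28), and Nr3c1, the glucocorticoid receptor, by 0.07 (SE 0.069). Breakdown of serine and threonine was measured through 2 of 6 listed genes, of which Shmt2, the mitochondrial serine hydroxymethyltransferase, varied, with a difference of -0.076 (SE 0.16) and overlap. The probe set that stood for the other gene, Shmt1, did not vary. Its 3 other probe sets that did vary are not described here.

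A further probe set, annotated to both Gm13872 and Slc1a2 and so not counted with the markers, read 6.50, 6.65 and 6.57 in the 6C+4CP mice and 6.70, 6.53 and 6.69 in the 10C mice.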
